A study of Mus musculus with 4 samples.

Results

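The voltage-gated sodium and calcium channel genes were the 40 protein-coding mouse genes, of 21938 annotated in GENCODE M21 (GRCm38), whose symbols begin with Scn, Cacna, Cacnb or Cacng followed by the subunit number. They comprised 10 sodium channel alpha subunits, 4 sodium channel beta subunits, 4 Cav1, 3 Cav2 and 3 Cav3 pore subunits, 4 alpha2delta subunits, 4 Cav beta subunits and 8 gamma subunits. Accessibility was read from single-nucleus ATAC-seq, an assay in which the Tn5 transposase cuts open chromatin and each cut end is counted within called peaks. Nuclei came from the cortex and the hippocampus of Dlx6aCre;Sun1/sfGFP mice at postnatal day 30, with 2 libraries per tissue, and were sorted for DAPI and GFP before the 10x Genomics reaction. All 4 libraries carried both alleles, so no library served as an unlabelled control. Cre in this line is driven by Dlx6a regulatory sequence, active in forebrain GABAergic neurons and their precursors, and Sun1/sfGFP places a fluorescent protein on the nuclear membrane of cells in which Cre has acted. The labels do not say whether replicates were separate animals, so the spread between libraries may be technical. The p-values of the tissue comparison measure that spread. Those of the later comparisons between groups of nuclei within a library measure how much the within-library differences varied across libraries.

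Voltage-gated sodium channels open within a fraction of a millisecond of depolarisation and carry the rising phase of the action potential, each as 1 pore-forming alpha subunit with auxiliary beta subunits. Voltage-gated calcium channels convert depolarisation into calcium entry. Their pores are Cav1 (L-type, coupled to transcription), Cav2 (P/Q-, N- and R-type, coupled to transmitter release) and Cav3 (T-type, low-threshold bursting). Cav1 and Cav2 pores are carried to the membrane by alpha2delta and beta subunits. Parvalbumin, somatostatin and Adarb2-lineage interneurons are known for different firing patterns: fast and sustained in the first, adapting and low-threshold in the second, and diverse in the third, which covers neurons from the caudal ganglionic eminence such as Vip and Lamp5 cells.

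The libraries held 2355 to 5576 nuclei, 15306 in all, with 32005984 to 117290059 cut sites in 61965 to 157220 peaks and a median of 7352 to 47236 cut sites per nucleus. Cortex 2 stood apart with the fewest peaks (61965) and cut sites, and cortex 1 with the greatest depth. Of all barcodes, 136 occurred in more than 1 library, between 47 and 88 per library. All 7 pan-GABAergic marker genes (among them Gad1 and Dlx1) had cut sites in every library, whereas 1 to 5 of the 7 excitatory neuron markers were at 0 in each. Summed over all nuclei, the pan-GABAergic list measured 720.4 to 1165 CPM. The microglial list measured 201 to 265 CPM and the oligodendrocyte-lineage list 209.7 to 279.9 CPM. Each nucleus was also scored on marker lists against its library's mean rate, given its depth. By these scores, 47.7 to 51.8% of nuclei per library stood higher on glial, excitatory and endothelial markers than on pan-GABAergic genes. Both scores are centred on the library itself, so this share does not measure how many nuclei were other cells. Peaks were called separately in each library, so a gene's sum between libraries also depends on how much of it was called. Values below are CPM, meaning cut sites scaled to 1000000 cut sites in the library's peaks, summed over all peaks touching a window from 2 kb before a gene's start to its end, and are listed in the order cortex 1, cortex 2, hippocampus 1 and hippocampus 2.

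Per kb of gene window, the sodium channel pore genes were less accessible than their beta subunits in every library. Scn8a (Nav1.6, the axon initial segment and node channel) headed the alpha subunits at 1.12, 1.12, 1.11 and 0.913 CPM per kb and lay on average at the 60.1th percentile of all protein-coding genes. Scn7a, which encodes the sodium-sensing channel Nax, had the lowest mean, with 0.0236, 0, 0.0447 and 0.0421 CPM per kb. Neither Scn7a nor Scn11a, a sensory neuron channel, had a peak in cortex 2, where both are therefore listed at 0. The median percentile of the 10 alpha subunits was 37. Scn1a (Nav1.1), also a main brain channel, measured 0.555, 0.491, 0.513 and 0.465 CPM per kb. Scn2a (Nav1.2) measured 0.372, 0.149, 0.373 and 0.289 CPM per kb, and Scn3a (Nav1.3) 0.412, 0.177, 0.382 and 0.34. Scn2a and Scn3a were lowest in cortex 2, with 2 and 3 peaks there against 4 to 12 in the other libraries. The skeletal muscle channel Scn4a was above Scn2a and Scn3a in every library but cortex 1, with 0.317, 0.553, 0.656 and 0.36 CPM per kb.

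The 4 sodium channel beta subunits, small membrane proteins that shape gating and adhesion, lay at a median percentile of 79.9. Scn3b had the lowest mean of them, with 1.65, 1.47, 2.13 and 2.35 CPM per kb. These genes are short, 12.5 to 24.4 kb of window against 36.7 to 178 kb for the alpha subunits. Among the calcium channel pores, ranked by the mean over libraries, Cacna1s (Cav1.1, the skeletal muscle channel) was the highest Cav1 gene per kb at 1.09, 1.35, 1.24 and 1.27, and Cacna1f (Cav1.4, known from photoreceptors) the lowest at 0.803, 0.616, 0.492 and 0.481. Of the Cacna1f cut sites, 45 to 74.8% lay in peaks that the window of Ccdc22 also overlaps, and both genes' values are uncertain for it. Among Cav2 genes, Cacna1a (P/Q-type) led at 1.74, 2.02, 1.80 and 1.39 CPM per kb and Cacna1e (R-type) was lowest at 0.42, 0.285, 0.258 and 0.234. Among Cav3 genes, Cacna1g led at 2.59, 1.90, 1.69 and 1.74 and Cacna1i was lowest at 0.425, 0.368, 0.482 and 0.417.

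Auxiliary calcium channel subunits held both ends of the calcium channel range. Cacnb3, a cytoplasmic beta subunit, had the highest level of the 40 genes in every library, at 6.04, 7.15, 5.06 and 6.10 CPM per kb (93.3rd percentile), and Cacnb2 the lowest of its subfamily at 0.401, 0.272, 0.432 and 0.43. Of the alpha2delta genes, Cacna2d2 had the highest mean at 2.36, 1.62, 1.82 and 1.84 CPM per kb and Cacna2d1, the principal gabapentin-binding subunit, the lowest, at 0.0789, 0.00573, 0.159 and 0.117. Cacna2d1 had 1 peak in cortex 2 against 11, 21 and 12 in the other libraries. Of the Cacna2d4 cut sites, 48.8 to 59% lay in peaks shared with Lrtm2. The gamma family includes the AMPA receptor auxiliary subunits (TARPs) Cacng2, Cacng3, Cacng4, Cacng5, Cacng7 and Cacng8, and the muscle-type subunits Cacng1 and Cacng6. Cacng7 had the highest mean, at 2.73, 2.72, 2.46 and 2.31 CPM per kb, and Cacng1 the lowest, at 0.266, 0.882, 0.635 and 0.319. In cortex 1, 66.7% of the Cacng7 cut sites lay in peaks that another gene's window also overlaps. In all, 23 of the 40 genes lay above the 50th percentile of all genes per kb.

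**Figure D1:**
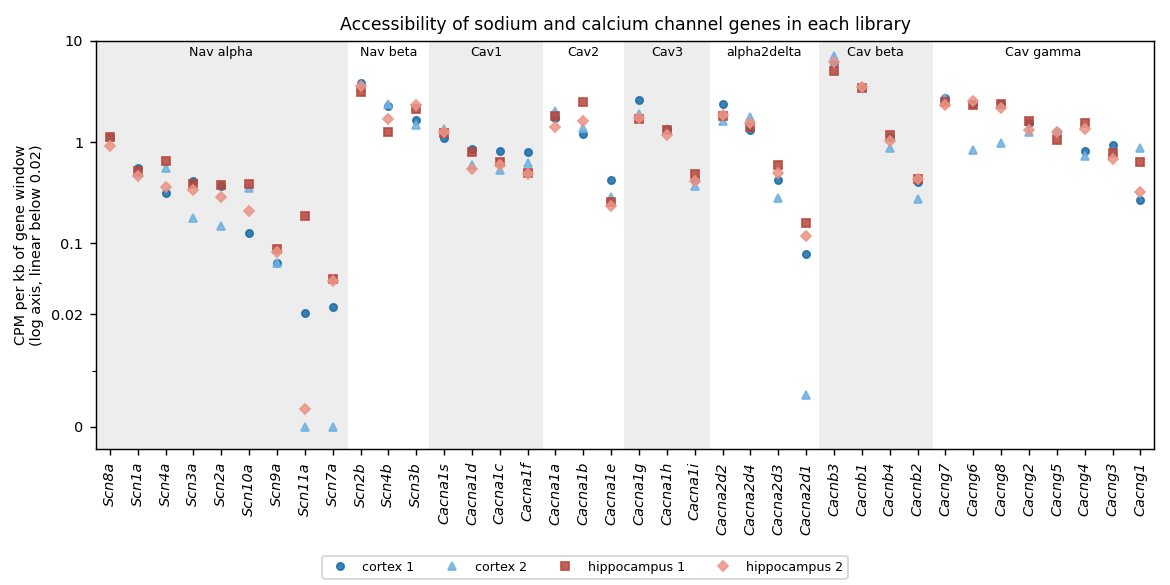
Accessibility of 38 of the genes in each library, in CPM per kb of gene window on a log axis that is linear below 0.02, with genes grouped by subfamily. The sodium channel beta genes sit above the alpha genes, Cacnb3 is highest, and Scn7a and Scn11a are at 0 in cortex 2.

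No member differed between cortex and hippocampus past the threshold. In the edgeR quasi-likelihood test, 0 of 40 members and 20 of 16326 genes (0.123%) had an adjusted p under 0.05, 0.0735% higher in hippocampus and 0.0490% lower, and 3 members had an unadjusted p under 0.05 against 3.07% of all genes. With DESeq2, 1 member and 105 genes (0.643%) passed. The median log2 fold change, hippocampus over cortex, was 0.01 over the members and -0.10 over all genes; TMM scaling moved the latter to -0.01, and restricting the sums to regions called in all 4 libraries moved it to -0.19. The libraries of the 2 tissues did not overlap for 8 members that were higher in hippocampus and 8 that were higher in cortex, against 10.7% and 11.1% of all genes. Of the cell type markers, Sox10, an oligodendrocyte-lineage gene listed at 0 in both cortical libraries, passed as higher in hippocampus, and the 8 genes of that list summed to 279.9, 209.7, 267 and 276 CPM. Its part in the tissue values was not tested. With 2 libraries a side, an exact permutation test of a single gene cannot reach 0.05.

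Cacng4, a TARP, had the smallest p, at 52.8, 46.6, 98.3 and 86.7 CPM. Both hippocampal libraries exceeded both cortical ones, with 49.7 ± 4.37 CPM in cortex and 92.5 ± 8.25 CPM in hippocampus (mean ± SD of 2 libraries each). The difference did not pass (log2 fold change 0.90 ± 0.34 SE, edgeR adjusted p = 0.842). DESeq2 called it (log2 fold change 0.90, adjusted p = 0.00338). The peaks called at Cacng4 covered 8.18, 2.46, 14.8 and 8.31 kb, with 6.45, 18.9, 6.66 and 10.4 CPM per covered kb, and on regions common to all libraries its log2 fold change was 0.38. Cacna1b (N-type) measured 193, 223, 397 and 262 CPM and Cacna2d3, an alpha2delta subunit, 348, 231, 484 and 404 CPM. Both were higher in both hippocampal libraries, Cacna1b with log2 fold change 0.66 ± 0.28 SE, edgeR adjusted p = 1. The Cacna2d3 difference was of similar size (log2 fold change 0.62 ± 0.27 SE, edgeR adjusted p = 1). Peaks at Cacna1b covered 24.3, 9.51, 56.4 and 21.8 kb, with 7.91, 23.5, 7.04 and 12 CPM per covered kb. Peaks at Cacna2d3 covered 43.6, 10.4, 54.7 and 30.7 kb, with 7.98, 22.3, 8.83 and 13.1 CPM per covered kb. On common regions the log2 fold changes were 0.35 and 0.25, and within 2 kb of the gene start they had the opposite sign (-0.38 and -0.40). Without cortex 1, Cacna2d3 passed (log2 fold change 0.94, adjusted p = 0.0107), as did Cacna2d1 and Scn11a, the genes with 1 peak and no peak in the remaining cortical library.

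On the cortical side, Scn4b, the beta subunit known for resurgent sodium current, measured 40.7, 42.3, 22.1 and 30.1 CPM. Both cortical libraries exceeded both hippocampal ones, with 41.5 ± 1.19 CPM in cortex and 26.1 ± 5.63 CPM in hippocampus (mean ± SD of 2 libraries each). The difference did not pass (log2 fold change -0.67 ± 0.34 SE, edgeR adjusted p = 1), and the log2 fold change on common regions was -0.71. Cacna1e measured 208, 141, 128 and 116 CPM (log2 fold change -0.52 ± 0.29 SE, edgeR adjusted p = 1). Cacna1g, a T-type pore, measured 176, 129, 115 and 118 CPM (log2 fold change -0.39 ± 0.29 SE, edgeR adjusted p = 1). Neither gene's libraries overlapped between the tissues, but the 2 cortical values differed from each other by more than the cortex 2 value differed from hippocampus, and within 2 kb of the gene start the Cacna1g log2 fold change was 0.015.

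**Figure D2:**
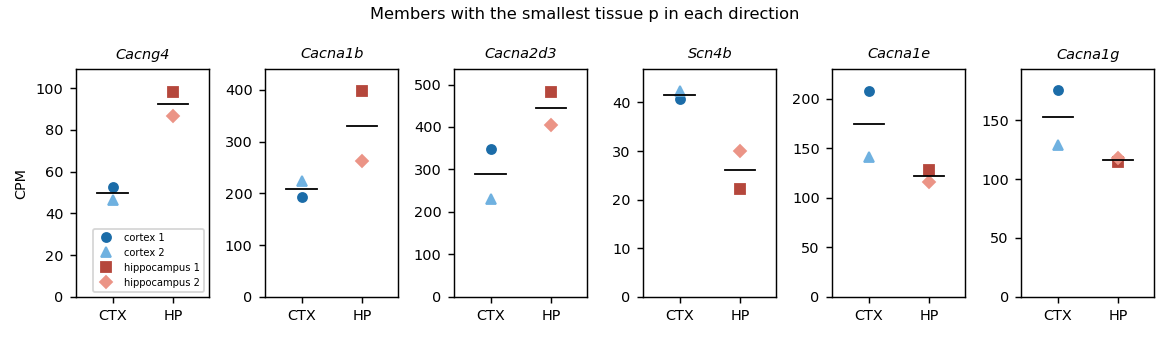
CPM of the 3 members with the smallest p in each direction of the tissue comparison, for the 2 cortical (CTX) and 2 hippocampal (HP) libraries, with a bar at each mean of 2 libraries. Cortical and hippocampal points do not overlap in these panels, and none passed the adjusted threshold in edgeR.

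Nuclei were then compared by their cut sites at Pvalb, Sst and Adarb2. In each library, nuclei with at least 2 cut sites at a gate gene and a residual in the top 10% of that library, given the nucleus's total, formed the Pvalb-high (221 to 487 nuclei per library), Sst-high (125 to 259) and Adarb2-high (214 to 502) gates, and nuclei in more than 1 gate were left out. Each gate is a range of a sparse score and not a cell type. Cut sites at Sst were found in only 5.62 to 30.9% of nuclei, so that in cortex 2 and both hippocampal libraries the minimum of 2 cut sites alone set the Sst gate. In cortex 2 the minimum also reduced the other gates, with 378 and 362 of 4191 nuclei passing for Pvalb and Adarb2. A count of 2 cut sites can be the ends of 1 fragment. The mean at the gate gene was 2.26 to 2.34 cut sites in those Sst gates. It was 2.32 and 2.27 in the Pvalb and Adarb2 gates of cortex 2, and 2.57 to 13 in the other gates. For Pvalb and Adarb2, 48 to 205 and 54 to 188 nuclei per library lay within 0.25 residual units of the cut. Median depth was 9328 to 56548 cut sites per nucleus in the Pvalb-high, 8797.5 to 49225 in the Sst-high and 8268 to 43928.5 in the Adarb2-high gate, and in each library the Pvalb-high nuclei were deeper than the Adarb2-high nuclei. No doublet caller was run. A gate's sum cannot tell fewer nuclei with an open gene from less opening per nucleus.

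Markers of medial and caudal ganglionic eminence interneurons differed between the gates. Of 7 tested genes of the medial list, 5 were higher in Pvalb-high than in Adarb2-high nuclei, including Lhx6 (log2 fold change 0.89 ± 0.08 SE) and Sox6 (0.83 ± 0.08), and 3 were higher in Sst-high nuclei. Of the 8 genes of the caudal list, 6 and 4 were lower, including Htr3a (-1.27 ± 0.21 and -1.21 ± 0.22). Kcnc1, the Kv3.1 channel of fast-spiking cells, was higher in Pvalb-high than in Sst-high nuclei (0.50 ± 0.07), and Elfn1 was lower (-0.71 ± 0.16). In cortex 2 the medial list summed to 629, 639.7 and 545 CPM and the caudal list to 139, 127 and 184 CPM in Pvalb-high, Sst-high and Adarb2-high nuclei, and its Adarb2 gate rested on 4 peaks, against 22, 58 and 19 in cortex 1, hippocampus 1 and hippocampus 2. Other lists moved as well: of 3 microglial genes tested, Csf1r was higher in Pvalb-high and Csf1r and P2ry12 in Sst-high than in Adarb2-high nuclei. The summed level of the 4-gene microglial list ranged over 204 to 269.7 CPM in Pvalb-high, 199 to 229 in Sst-high and 186 to 247 in Adarb2-high nuclei, with Tmem119 at 0 in 3 of 4 libraries. Of 7 oligodendrocyte-lineage genes tested, Mog was lower in Sst-high than in Adarb2-high nuclei and Sox10 higher in Pvalb-high than in Sst-high nuclei, and the 8-gene list summed to 216 to 269.8, 183 to 278 and 183 to 257 CPM. No excitatory, astrocyte or endothelial marker passed. The part of these markers in the results below was not tested.

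Between 7 and 14 of the 40 channel genes differed between any 2 gates. In Pvalb-high over Adarb2-high nuclei, 6 members were higher and 8 lower (14 of 40), against 3.75% and 3.23% of 16559 genes, 6.98% in all. In Sst-high over Adarb2-high nuclei, 4 were higher and 3 lower, against 4.00% and 3.83% of all genes, 7.83% in all. In Pvalb-high over Sst-high nuclei, 4 were higher and 5 lower, against 3.82% and 3.39% of all genes, 7.20% in all. The 3 contrasts share their gate sums, so they are not independent of each other. In all, 18 members were called in at least 1 contrast and 22 in none. The median log2 fold change over the members was -0.07, -0.02 and -0.01 in the 3 contrasts, against medians within 0.01 of 0 over all genes. In Pvalb-high over Adarb2-high nuclei, 5 of the 8 subfamilies held members called in both directions. A log2 fold change is the fitted value of the first gate named in a contrast over the second, and a fold below is that fitted value, or its opposite where a gate is called lower, put back on the linear scale.

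**Figure D3:**
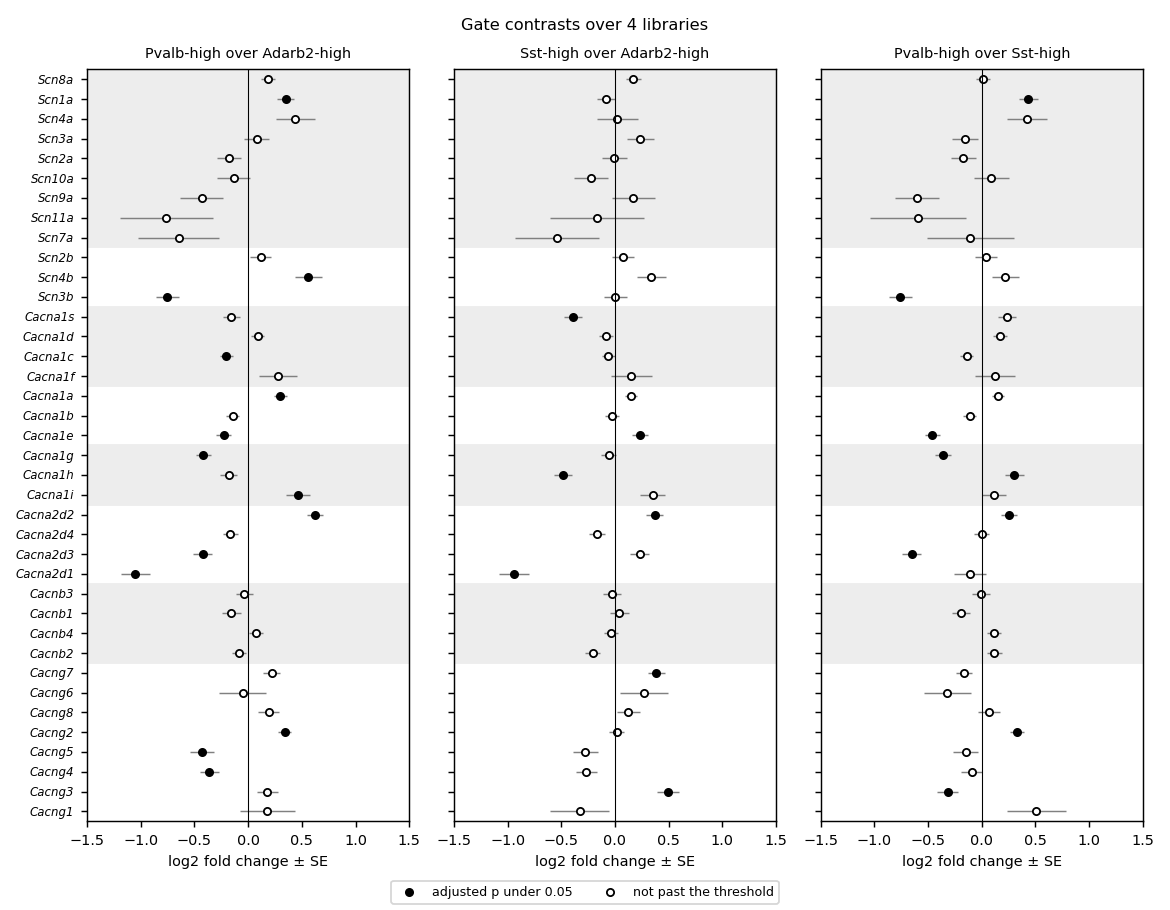
Log2 fold change ± SE of 38 of the genes in the 3 gate contrasts (edgeR, 4 libraries, library as block), grouped by subfamily in shaded bands; filled points have an adjusted p under 0.05. Filled points lie on both sides of 0 within the alpha2delta, Cav3 and sodium channel beta bands of the first panel, and no Cav beta gene is filled.

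Of the 10 sodium channel alpha subunits, only Scn1a passed in any contrast. Scn1a encodes Nav1.1, the main sodium channel of parvalbumin interneurons and the gene of Dravet syndrome. It measured 123, 109, 104 and 92 CPM in Pvalb-high, 84.8, 69, 78.1 and 84.7 in Sst-high and 94.9, 74.6, 89.3 and 74.6 in Adarb2-high nuclei. The Pvalb-high value was the highest of the 3 in all 4 libraries and lay above every Sst-high value. It was 1.27-fold that of Adarb2-high (log2 fold change 0.35 ± 0.08 SE, edgeR adjusted p = 0.00529) and 1.35-fold that of Sst-high nuclei (log2 fold change 0.43 ± 0.08 SE, edgeR adjusted p = 0.000937). With gates matched for depth the first was 0.28, adjusted p = 0.106, and with nuclei leaning to other cell types left out 0.28, adjusted p = 0.102. Scn8a was 0.18 ± 0.07 and 0.17 ± 0.07 on the log2 scale over Adarb2-high nuclei, and Scn2a -0.18 ± 0.11 and -0.01 ± 0.11, without passing. Scn7a and Scn11a had the widest errors of the alpha subunits, with SE of 0.38 and 0.43 in the Pvalb-high over Adarb2-high contrast.

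The beta subunits Scn3b and Scn4b moved in opposite directions. Scn3b measured 26.8, 26.7, 38.3 and 38.6 CPM in Pvalb-high, 51.6, 32.4, 59 and 73.9 in Sst-high and 47.2, 39.4, 64.5 and 67.4 in Adarb2-high nuclei. Pvalb-high was the lowest gate in all 4 libraries and did not overlap Adarb2-high. It was 1.69-fold lower than in Adarb2-high (log2 fold change -0.75 ± 0.11 SE, edgeR adjusted p = 1.84e-05) and 1.69-fold lower than in Sst-high nuclei (log2 fold change -0.76 ± 0.11 SE, edgeR adjusted p = 2.75e-05). Scn4b measured 53.8, 59.7, 26 and 32.2 CPM in Pvalb-high, 39.1, 53.7, 20.7 and 37.6 in Sst-high and 29.5, 36, 19.9 and 29.3 in Adarb2-high nuclei. Sst-high lay above Adarb2-high in every library and above Pvalb-high in hippocampus 2, and neither Scn4b contrast with Sst-high passed. Scn4b was higher in Pvalb-high than in Adarb2-high nuclei in all 4 libraries, with overlapping ranges (1.47-fold, log2 fold change 0.56 ± 0.13 SE, edgeR adjusted p = 0.00384). Without cortex 1 the Scn4b log2 fold change was 0.41, adjusted p = 0.157, and in the hippocampal libraries alone 0.27, adjusted p = 0.577. Scn2b did not pass in any contrast.

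The alpha2delta genes, whose products bring calcium channels to the presynaptic membrane, included the largest change of the 40 genes in both contrasts with Adarb2-high nuclei. Cacna2d2 measured 401, 243, 304 and 285 CPM in Pvalb-high, 295, 226, 234 and 281 in Sst-high and 213, 197, 179 and 213 in Adarb2-high nuclei. Every library had the order Pvalb-high, Sst-high, Adarb2-high, and neither of the first 2 overlapped the third. It was 1.54-fold higher in Pvalb-high (log2 fold change 0.62 ± 0.07 SE, edgeR adjusted p = 2.52e-06) and 1.29-fold higher in Sst-high than in Adarb2-high nuclei (log2 fold change 0.37 ± 0.08 SE, edgeR adjusted p = 0.00169). Between Pvalb-high and Sst-high nuclei the difference was smaller (log2 fold change 0.25 ± 0.07 SE, edgeR adjusted p = 0.0347) and did not pass without cortex 1 (0.18, adjusted p = 0.269) or without hippocampus 1 (0.21, adjusted p = 0.192).

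Cacna2d1 went the other way, with 21.4, 2.86, 49.9 and 41 CPM in Pvalb-high, 32.9, 1.83, 44.1 and 38.8 in Sst-high and 62.3, 1.88, 99 and 67.1 in Adarb2-high nuclei. It was lower in 3 of 4 libraries in Pvalb-high and in all 4 in Sst-high nuclei, with little to measure in cortex 2, where 1 peak was called. The log2 fold change was -1.05 ± 0.14 SE for Pvalb-high (edgeR adjusted p = 1.03e-05) and -0.94 ± 0.14 for Sst-high (edgeR adjusted p = 4.35e-05). On regions called in all 4 libraries these were -0.35, adjusted p = 0.589 and -0.33, adjusted p = 0.678. Cacna2d3 measured 222, 179, 434 and 381 CPM in Pvalb-high, 474, 291, 594 and 493 in Sst-high and 387, 249, 507 and 446 in Adarb2-high nuclei. Pvalb-high was lowest and Sst-high highest in all 4 libraries. It fell by 0.42 on the log2 scale against Adarb2-high (0.09 SE, edgeR adjusted p = 0.00592) and by 0.65 against Sst-high nuclei (0.09 SE, edgeR adjusted p = 0.000174). The first was -0.41, adjusted p = 0.097 without cortex 2. The libraries' Pvalb-high to Adarb2-high ratios were 0.575, 0.718, 0.855 and 0.853, and the tissue interaction was 0.44 ± 0.11 SE (edgeR adjusted p = 0.184).

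No calcium channel pore gene past the threshold changed by as much as Cacna2d1. Cacna1a measured 511, 542, 525 and 390.1 CPM in Pvalb-high, 411, 548, 446 and 381 in Sst-high and 395, 496, 385 and 334 in Adarb2-high nuclei. Sst-high lay above Adarb2-high in every library and above Pvalb-high in cortex 2, and neither Cacna1a contrast with Sst-high passed. Cacna1a was higher in Pvalb-high than in Adarb2-high nuclei in all 4 libraries, with overlapping ranges (1.23-fold, log2 fold change 0.30 ± 0.06 SE, edgeR adjusted p = 0.000969). Cacna1e measured 166, 113, 113 and 102 CPM in Pvalb-high, 249, 156, 143 and 134 in Sst-high and 202, 152, 121 and 109 in Adarb2-high nuclei. Sst-high was the highest gate in every library. Against Pvalb-high nuclei the Cacna1e difference was 1.37-fold (log2 fold change -0.46 ± 0.07 SE, edgeR adjusted p = 7.48e-05). Its differences from Adarb2-high nuclei were near the threshold: log2 fold change -0.23 ± 0.07 SE, edgeR adjusted p = 0.0443 for Pvalb-high, and log2 fold change 0.23 ± 0.07 SE, edgeR adjusted p = 0.0407 for Sst-high. The first lost the call without each of the 4 libraries in turn, with an adjusted p from 0.063 to 0.236, and the second without cortex 1, hippocampus 1 or hippocampus 2 (adjusted p = 0.251, 0.141 and 0.168), and with gates matched for depth (0.24, adjusted p = 0.0864). Within 2 kb of the gene start, both Pvalb-high differences had the opposite sign and did not pass (log2 fold change 0.66, adjusted p = 0.635 over Adarb2-high, and 0.23, adjusted p = 0.918 over Sst-high). Cacna1e had few cut sites there, with 4.90, 0, 0.428 and 0.751 CPM over all nuclei, so these signs are poorly determined. Cacna1b did not pass in any contrast.

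The T-type pores differed in how the gates ranked, and only Cacna1h kept the same order of gates in every library. Cacna1g (Cav3.1) measured 148, 107, 94.9 and 94.8 CPM in Pvalb-high, 194, 135, 117 and 126 in Sst-high and 192, 145, 138 and 117 in Adarb2-high nuclei. It was lowest in Pvalb-high nuclei in all 4 libraries, with a log2 fold change of -0.42 ± 0.07 SE against Adarb2-high (edgeR adjusted p = 0.00018) and of -0.36 ± 0.07 against Sst-high (edgeR adjusted p = 0.00138). Cacna1h (Cav3.2) measured 82.1, 80.7, 76.3 and 78.9 CPM in Pvalb-high, 63.4, 69, 70.7 and 55.1 in Sst-high and 92.6, 90.8, 91.2 and 85.7 in Adarb2-high nuclei. Every library had the order Adarb2-high, Pvalb-high, Sst-high, and Sst-high overlapped neither of the others. It was 1.40-fold lower than in Adarb2-high (log2 fold change -0.49 ± 0.09 SE, edgeR adjusted p = 0.000216) and 1.23-fold lower than in Pvalb-high nuclei (log2 fold change 0.30 ± 0.09 SE, edgeR adjusted p = 0.0234). The latter did not pass without cortex 1 (0.27, adjusted p = 0.233) or hippocampus 2 (0.25, adjusted p = 0.151). Within 2 kb of the gene start, it had the opposite sign (-0.19, adjusted p = 0.695). Cacna1i (Cav3.3) measured 55.8, 46.7, 58.9 and 49.7 CPM in Pvalb-high, 53.7, 42.7, 51.3 and 47.6 in Sst-high and 35.5, 27, 53.9 and 37.2 in Adarb2-high nuclei. Neither of its contrasts with Sst-high nuclei passed. Pvalb-high exceeded Adarb2-high nuclei in all 4 libraries (1.38-fold, log2 fold change 0.46 ± 0.11 SE, edgeR adjusted p = 0.00676). That difference did not pass without cortex 1 (0.38, adjusted p = 0.115).

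Of the Cav1 genes, Cacna1c and Cacna1s each passed once. Cacna1c (Cav1.2, the main neuronal L-type pore) measured 502, 295, 342 and 337 CPM in Pvalb-high and 504, 346, 424 and 409 in Adarb2-high nuclei. It was lower in all 4 libraries by small amounts (log2 fold change -0.20 ± 0.06 SE, edgeR adjusted p = 0.031), and did not pass without cortex 2 (-0.19, adjusted p = 0.1), hippocampus 1 (-0.17, adjusted p = 0.2) or hippocampus 2 (-0.18, adjusted p = 0.173). Cacna1s measured 64.3, 83.6, 69.2 and 71.4 CPM in Sst-high and 85.4, 104, 91.7 and 96.2 in Adarb2-high nuclei. The ranges did not overlap (1.31-fold lower, log2 fold change -0.39 ± 0.09 SE, edgeR adjusted p = 0.00234). Part of the Cacna1s window is shared with Ascl5, up to 21.6% of its cut sites in cortex 1. Cacna1d, Cacna1f, Cacna2d4 and the 4 Cav beta genes did not pass in any contrast.

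Among the gamma genes, Cacng2 encodes stargazin, the prototypical TARP. It measured 249, 195, 253 and 198 CPM in Pvalb-high, 179.9, 159, 202 and 177 in Sst-high and 191, 151, 199.6 and 165 in Adarb2-high nuclei. Pvalb-high was the highest gate in all 4 libraries (log2 fold change 0.34 ± 0.06 SE, edgeR adjusted p = 0.000665, over Adarb2-high; log2 fold change 0.32 ± 0.07 SE, edgeR adjusted p = 0.00132, over Sst-high). Cacng2 lies 71.1 kb from Pvalb on chromosome 15, and the gate used cut sites at Pvalb. Ift27, the tested gene between them, was -0.10 ± 0.08 and -0.14 ± 0.08 SE on the log2 scale in the same contrasts, and did not pass. Other neighbours passed, and those that did were higher in Pvalb-high nuclei. Over Adarb2-high nuclei they were Csf2rb (log2 fold change 0.83 ± 0.21 SE, edgeR adjusted p = 0.00842), Tex33 (0.90 ± 0.20 SE, edgeR adjusted p = 0.00397) and Kctd17 (0.37 ± 0.09 SE, edgeR adjusted p = 0.00867), all on the far side of Pvalb. Over Sst-high nuclei they were Kctd17 (log2 fold change 0.37 ± 0.09 SE, edgeR adjusted p = 0.0114) and Eif3d (0.38 ± 0.12 SE, edgeR adjusted p = 0.0426), the latter on the far side of Cacng2. Tex33 was also higher in Sst-high than in Adarb2-high nuclei (log2 fold change 1.04 ± 0.21 SE, edgeR adjusted p = 0.00101). In that contrast Csf2rb (0.18 ± 0.22 SE) and Kctd17 (-0.0013 ± 0.097 SE) did not pass. Whether the shared neighbourhood contributes to the Cacng2 values was not tested. Cacng3 measured 80.4, 68, 93.5 and 74.8 CPM in Pvalb-high, 120.1, 103, 88.1 and 86.4 in Sst-high and 79, 81, 69.8 and 54.6 in Adarb2-high nuclei. Sst-high did not overlap Adarb2-high (1.41-fold higher, log2 fold change 0.50 ± 0.10 SE, edgeR adjusted p = 0.00143). The Cacng3 difference from Pvalb-high nuclei (log2 fold change -0.32 ± 0.10 SE, edgeR adjusted p = 0.0484) was in the opposite direction in hippocampus 1 and did not pass without cortex 1 (-0.19, adjusted p = 0.488), cortex 2 (-0.25, adjusted p = 0.19) or hippocampus 2 (-0.35, adjusted p = 0.0874), nor with gates matched for depth (-0.32, adjusted p = 0.0696).

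Cacng7 measured 117, 117, 101 and 99.4 CPM in Sst-high and 92.7, 86.6, 74.5 and 78.3 in Adarb2-high nuclei, without overlap (1.31-fold higher, log2 fold change 0.39 ± 0.08 SE, edgeR adjusted p = 0.00127). Within 2 kb of the gene start the Cacng7 log2 fold change was -0.037. Cacng4 measured 41, 43.5, 94.5 and 84.9 CPM in Pvalb-high and 67.4, 46.1, 118 and 96.2 in Adarb2-high nuclei. Cacng5 measured 41.9, 49.9, 39.5 and 53.2 CPM in Pvalb-high and 68.4, 70.5, 44.3 and 64.6 in Adarb2-high nuclei. Both TARP genes were lower in Pvalb-high nuclei in all 4 libraries, Cacng4 with a log2 fold change of -0.36 ± 0.09 SE (edgeR adjusted p = 0.0114) and Cacng5 with one of -0.43 ± 0.11 (edgeR adjusted p = 0.0154). Cacng4 did not pass without cortex 1 (-0.22, adjusted p = 0.298) or hippocampus 1 (-0.37, adjusted p = 0.0673), nor Cacng5 without cortex 1 (-0.30, adjusted p = 0.24) or cortex 2 (-0.41, adjusted p = 0.0843), nor with gates matched for depth (-0.30, adjusted p = 0.239). Cacng1, Cacng6 and Cacng8 did not pass in any contrast.

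**Figure D4:**
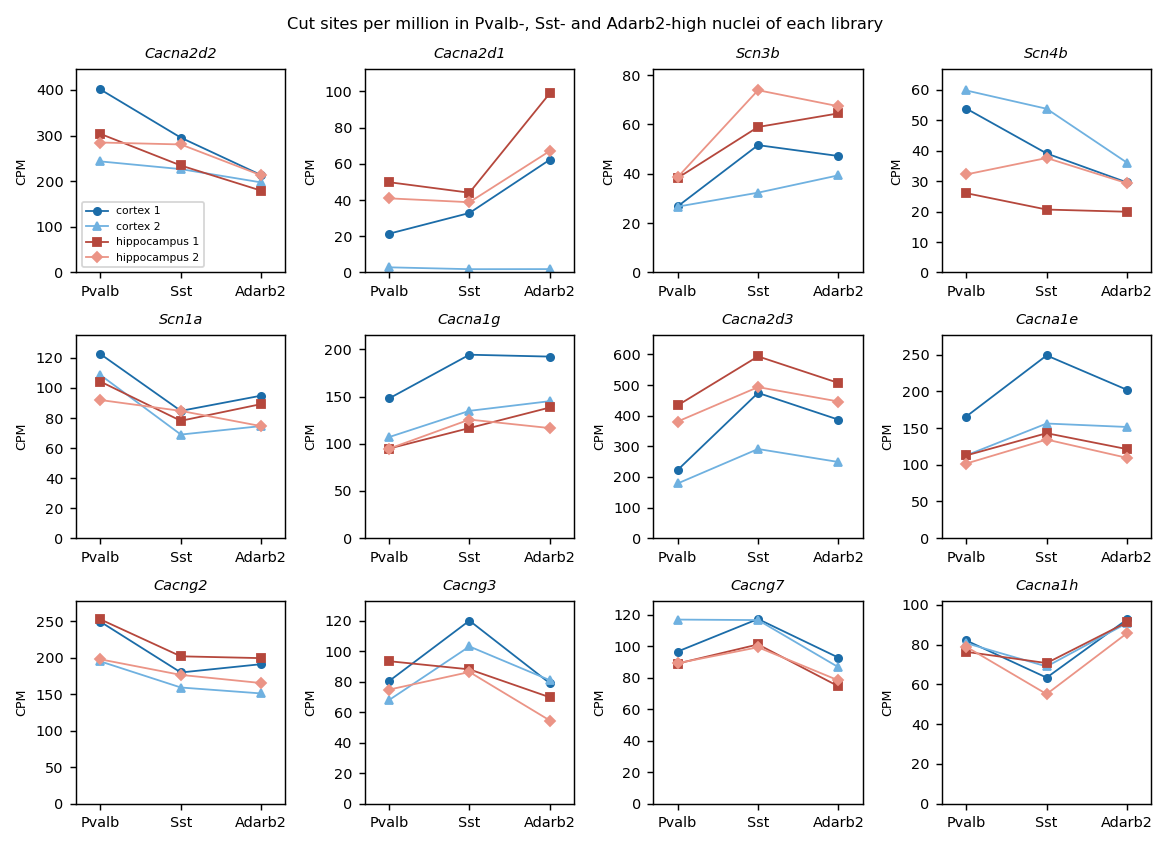
CPM of 12 genes in the Pvalb-, Sst- and Adarb2-high nuclei of each library, with lines joining the 3 gates of 1 library. Cacna2d2 falls from Pvalb-high to Adarb2-high in every library, Scn3b and Cacna2d3 are lowest in Pvalb-high nuclei, Cacna1h is lowest in Sst-high nuclei, and Cacna2d1 stays near 0 in cortex 2.

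The effect of the gate did not differ detectably between the tissues for any member: 0 of 40 passed the interaction test for Pvalb-high over Adarb2-high nuclei, where 4 genes (0.0242%) passed, and 0 for Sst-high over Adarb2-high, where 20 (0.121%) passed, 0.0544% upward and 0.0664% downward. At an unadjusted p under 0.05 the edgeR test gave 10 and 3 members, against 5.85% and 7.59% of all genes, and DESeq2 called 0 members in both. Without cortex 2, 2 members passed the first, among them Cacna2d3 (log2 interaction 0.57). Within tissue, 11, 3 and 7 members passed in the cortical libraries alone for the 3 contrasts in the order given above, against 3.50%, 4.24% and 5.36% of all genes. In the hippocampal libraries alone, 9, 6 and 3 passed, against 2.96%, 4.20% and 1.81% of all genes. Within 2 kb of gene starts, 10, 2 and 5 members passed, against 4.42%, 2.01% and 3.29% of the 14543 genes tested there. Cacna1a, Cacna1c, Cacng1, Scn4a and Scn10a had no cut sites there in any library and could not be tested.

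Partners of these channels were tested as a list of 25 genes that covered the axon initial segment scaffold, the intracellular FGFs, active zone organisers, calmodulins, the NALCN leak channel complex and small channel inhibitors. In Pvalb-high over Adarb2-high nuclei, 1 of 25 was higher and none lower, where 6.98% of all genes were called. In Sst-high over Adarb2-high nuclei, 3 were higher and 2 lower (7.83% of all genes called), and in Pvalb-high over Sst-high nuclei 1 was higher and 2 lower (7.20%). Fgf12, an intracellular FGF that binds sodium channel alpha subunits, was higher than in Adarb2-high nuclei in both other gates (log2 fold change 0.20 ± 0.06 and 0.23 ± 0.06 SE). Nalcn, the sodium leak channel, and its partner Fam155a were higher in Sst-high nuclei (0.41 ± 0.09 and 0.28 ± 0.07). Against Sst-high nuclei, Nalcn (-0.39 ± 0.09) and its partner Unc80 (-0.33 ± 0.10) were lower in Pvalb-high nuclei. Rimbp2, which ties calcium channels to the release site, was lower in Sst-high than in Adarb2-high nuclei (-0.34 ± 0.06) and higher in Pvalb-high than in Sst-high nuclei (0.21 ± 0.06). Fgf13 was lower in Sst-high nuclei (-0.43 ± 0.11). Neither Ank3, the initial segment scaffold, nor Nfasc passed in any contrast, and no gene of the list passed in the tissue comparison.

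Gene sums hide regions that move in opposite directions. Peaks were merged across libraries, and 253 of the regions called in all 4 libraries and tested lay in 38 of the members, all but Scn7a and Scn11a. Of these, 29 were higher and 28 lower in Pvalb-high than in Adarb2-high nuclei, 28 and 19 in Sst-high than in Adarb2-high, and 25 and 23 in Pvalb-high than in Sst-high nuclei. Over all 46688 regions tested, 16.3%, 19.9% and 15.8% were called in the 3 contrasts, against 22.5%, 18.6% and 19.0% of the member regions. By direction, the shares of all regions called higher and lower were 8.88% and 7.41%, 10.6% and 9.30%, and 8.02% and 7.79%. Of the 253, 163 were intronic and 36 held the start of an annotated transcript. The called regions were intronic in 39 of 57, 34 of 47 and 35 of 48 cases. In 6, 4 and 5 genes, regions of the same gene were called in both directions. Cacna1c held 26 regions, of which 3 were higher and 7 lower in Sst-high than in Adarb2-high nuclei. Cacna2d3 held 21, of which 1 was higher and 6 lower in Pvalb-high, but 6 higher and 1 lower in Sst-high than in Adarb2-high nuclei.

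**Figure D5:**
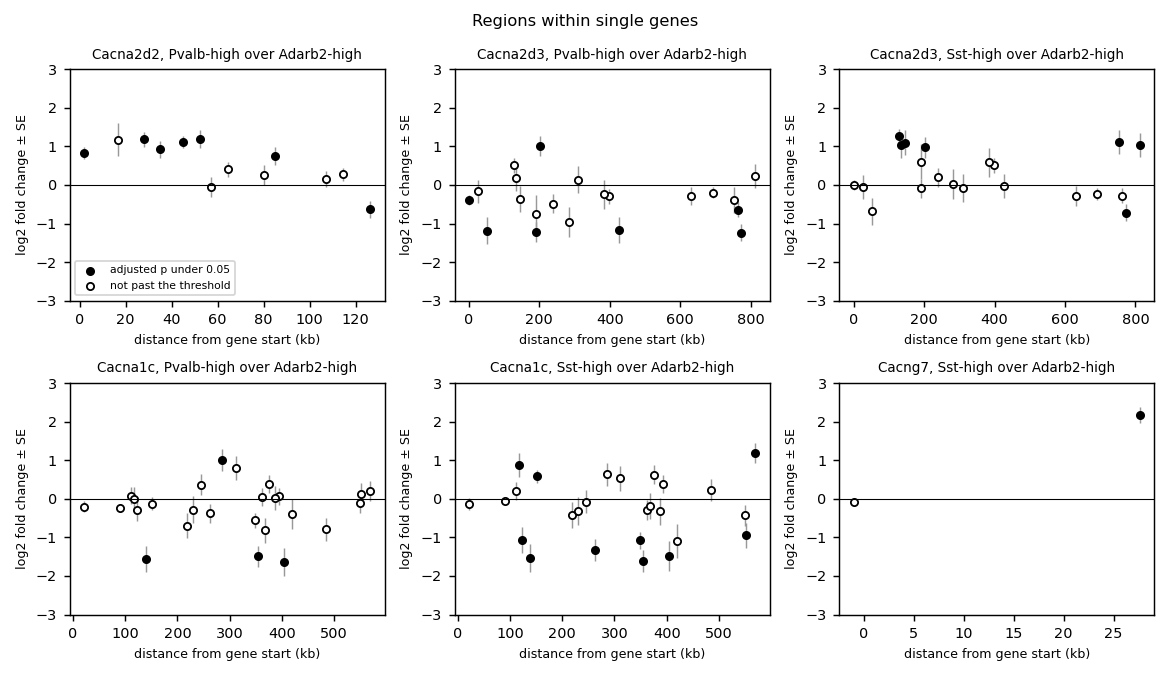
Log2 fold change ± SE of single regions of 4 genes against their distance from the gene start in kb, in the gate contrast named over each panel; filled points have an adjusted p under 0.05. Cacna2d2 regions near the start lie above 0 and its last region below it, Cacna1c and Cacna2d3 have filled points on both sides of 0, and Cacng7 has 1 filled point at 27.7 kb.

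The sequences below are 300 bases of the reference, on the plus strand of GRCm38, around the middle of the stretch that peaks of all 4 libraries cover. For each direction of each contrast, the region taken was that of smallest p, among up to 4, whose 300-base window overlapped no annotated exon. The sequences are shown as the stretches behind the region results that follow. Capitals mark E-box matches (CANNTG, both strands).
Cacna2d2 chr9:107445137-107445436: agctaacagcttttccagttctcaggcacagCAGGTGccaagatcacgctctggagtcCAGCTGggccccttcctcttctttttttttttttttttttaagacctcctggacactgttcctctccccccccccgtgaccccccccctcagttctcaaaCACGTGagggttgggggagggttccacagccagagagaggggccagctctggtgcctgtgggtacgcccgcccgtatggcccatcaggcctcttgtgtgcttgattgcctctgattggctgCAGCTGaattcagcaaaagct
Cacna1c chr6:118841906-118842205: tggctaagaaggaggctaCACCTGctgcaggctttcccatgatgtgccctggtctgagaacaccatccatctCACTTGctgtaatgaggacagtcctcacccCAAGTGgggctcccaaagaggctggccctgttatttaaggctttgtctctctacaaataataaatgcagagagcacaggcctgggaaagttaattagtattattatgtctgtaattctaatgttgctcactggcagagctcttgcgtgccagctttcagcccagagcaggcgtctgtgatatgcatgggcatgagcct
Cacng7 chr7:3360536-3360835: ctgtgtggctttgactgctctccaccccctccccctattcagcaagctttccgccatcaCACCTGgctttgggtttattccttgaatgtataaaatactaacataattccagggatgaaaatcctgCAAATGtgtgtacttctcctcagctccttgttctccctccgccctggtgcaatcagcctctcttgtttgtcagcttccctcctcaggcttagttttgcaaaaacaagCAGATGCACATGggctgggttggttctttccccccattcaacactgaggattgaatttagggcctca
Cacna1s chr1:136089891-136090190: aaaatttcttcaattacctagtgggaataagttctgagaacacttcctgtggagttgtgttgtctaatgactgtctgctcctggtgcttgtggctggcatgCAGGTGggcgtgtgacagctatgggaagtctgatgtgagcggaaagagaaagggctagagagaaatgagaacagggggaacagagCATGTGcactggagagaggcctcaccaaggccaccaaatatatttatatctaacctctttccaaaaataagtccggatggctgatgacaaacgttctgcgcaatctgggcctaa
Cacng2 chr15:78085657-78085956: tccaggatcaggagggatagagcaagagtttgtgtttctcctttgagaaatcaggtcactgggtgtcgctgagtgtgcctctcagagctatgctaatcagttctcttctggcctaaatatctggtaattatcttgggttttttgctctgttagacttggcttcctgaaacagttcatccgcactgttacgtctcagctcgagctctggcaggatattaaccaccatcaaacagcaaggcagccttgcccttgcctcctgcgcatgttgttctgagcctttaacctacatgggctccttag
An E-box was found in 79.6% of windows of this length centred on the 46698 common regions. Neither the MEF2 letters (CTA and TAG with any 4 bases between), found in 4.58% of windows, nor the AP-1 letters TGANTCA, found in 11.5%, occurred in these 5 sequences on either strand. The Cacng2 window was the only one of the 5 without an E-box.

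The Cacng7 region (chr7:3360160-3361053), in an intron 27.7 kb from the gene start, had the smallest p of the member regions in any contrast. It measured 27.4, 41.5, 28.1 and 25.9 CPM in Sst-high, 7.41, 10.9, 3.99 and 5.58 in Adarb2-high and 10.2, 13.7, 11.6 and 14.4 in Pvalb-high nuclei. Sst-high nuclei exceeded every value of the other gates, 4.51-fold over Adarb2-high (log2 fold change 2.17 ± 0.22 SE, edgeR adjusted p = 6.55e-08), and Pvalb-high nuclei were 2.44-fold lower (log2 fold change -1.28 ± 0.20 SE, edgeR adjusted p = 4.67e-05). Within 2 kb of the gene start, in contrast, the Cacng7 log2 fold change of Sst-high over Adarb2-high nuclei was -0.037. The Cacng2 region (chr15:78085404-78086492), in an intron 34.1 kb from its start, measured 26, 34.3, 21.5 and 15.7 CPM in Pvalb-high and 6.28, 12.2, 5.75 and 7.93 in Sst-high nuclei, without overlap (3.22-fold higher, log2 fold change 1.69 ± 0.22 SE, edgeR adjusted p = 6.63e-06).

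The Cacna2d2 region (chr9:107443181-107445966), in an intron 45 kb from the start, measured 51.8, 45.1, 38 and 37.5 CPM in Pvalb-high, 39, 40.9, 30.7 and 42.2 in Sst-high and 18.7, 25.5, 11.7 and 29.7 in Adarb2-high nuclei. Both other gates exceeded every Adarb2-high value, Pvalb-high by 2.16-fold (log2 fold change 1.11 ± 0.15 SE, edgeR adjusted p = 1.55e-05) and Sst-high by 1.87-fold (log2 fold change 0.91 ± 0.16 SE, edgeR adjusted p = 0.000114). Another region of the gene, chr9:107425809-107429255, which overlaps a coding exon, was higher in Pvalb-high than in Adarb2-high nuclei (log2 fold change 1.18 ± 0.19 SE, edgeR adjusted p = 7.52e-05). The Cacna1c region (chr6:118841667-118842433), in an intron 354 kb from the start, measured 3.35, 5.08, 6.13 and 10.7 CPM in Pvalb-high, 4.01, 1.22, 7.88 and 7.51 in Sst-high and 12.9, 15.4, 19.5 and 17.7 in Adarb2-high nuclei. The cortex 2 Sst-high value, from 170 nuclei, rests on few cut sites. Adarb2-high was highest in every library, 2.80-fold over Pvalb-high (log2 fold change -1.48 ± 0.27 SE, edgeR adjusted p = 0.000276) and 3.08-fold over Sst-high (log2 fold change -1.62 ± 0.29 SE, edgeR adjusted p = 9.13e-05). A neighbouring intronic region, chr6:118845676-118848925, was also lower in Sst-high than in Adarb2-high nuclei (log2 fold change -1.08 ± 0.22 SE, edgeR adjusted p = 0.000461).

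In Cacna1s, an intronic region (chr1:136089265-136090383) 37.1 kb from the start measured 3.10, 1.22, 6.60 and 2.92 CPM in Sst-high, 12.1, 14.3, 13.3 and 9.53 in Adarb2-high and 16.3, 13.7, 12.3 and 12.4 in Pvalb-high nuclei. The cortex 2 Sst-high value, from 170 nuclei, rests on few cut sites. Sst-high was lowest throughout, 3.32-fold below Adarb2-high (log2 fold change -1.73 ± 0.30 SE, edgeR adjusted p = 7.45e-05) and 3.76-fold below Pvalb-high (log2 fold change 1.91 ± 0.30 SE, edgeR adjusted p = 4.09e-05). A Cacna1h region that overlaps coding exons (chr17:25397272-25400011) was likewise lowest in Sst-high nuclei, with 16.7, 15.3, 13.2 and 15.9 CPM in Sst-high, 30.3, 34.1, 21.4 and 29.5 in Adarb2-high and 32.5, 37.8, 20.2 and 35.4 in Pvalb-high nuclei. It was lower in Sst-high than in Adarb2-high nuclei (log2 fold change -0.87 ± 0.15 SE, edgeR adjusted p = 7.84e-05) and higher in Pvalb-high than in Sst-high nuclei (log2 fold change 0.98 ± 0.15 SE, edgeR adjusted p = 3.48e-05). A separate intronic Cacna1h region (chr17:25409479-25411479) was lower in Pvalb-high than in Adarb2-high nuclei (log2 fold change -1.25 ± 0.26 SE, edgeR adjusted p = 0.0012).

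In Scn3b the region with the smallest p lay at the promoter. The region that holds its transcript start (chr9:40267950-40270417) measured 18.9, 25.4, 17.7 and 28.9 CPM in Pvalb-high, 42.4, 29.3, 36.4 and 60.1 in Sst-high and 34.1, 37.5, 36.8 and 47.9 in Adarb2-high nuclei. Pvalb-high was lowest in every library, 1.76-fold below Adarb2-high (log2 fold change -0.82 ± 0.13 SE, edgeR adjusted p = 5.88e-05) and 1.93-fold below Sst-high (log2 fold change -0.95 ± 0.13 SE, edgeR adjusted p = 1.3e-05). In Cacnb2, whose gene sum did not pass, an intronic region (chr2:14719047-14719795) 116 kb from the start measured 18, 19.1, 11.4 and 11.2 CPM in Pvalb-high, 4.28, 9.77, 2.55 and 3.76 in Sst-high and 6.32, 9.0, 1.48 and 3.95 in Adarb2-high nuclei. Pvalb-high was highest in every library, by 3.21-fold over Adarb2-high (log2 fold change 1.68 ± 0.28 SE, edgeR adjusted p = 9.65e-05) and 3.38-fold over Sst-high (log2 fold change 1.76 ± 0.30 SE, edgeR adjusted p = 0.00011). Likewise in Cacna1d, a region over a coding exon, 446 kb from the start, (chr14:30044862-30046094) measured 19.7, 19.4, 15.1 and 10.3 CPM in Pvalb-high and 4.64, 9.0, 4.43 and 2.79 in Adarb2-high nuclei, without overlap (3.35-fold, log2 fold change 1.74 ± 0.26 SE, edgeR adjusted p = 3.21e-05).

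Cacna2d3 had called regions in each of the 3 contrasts. Those given here come from different contrasts, so their positions are not compared. An intronic region 129 kb from the start (chr14:29591718-29593694) measured 39.7, 41.5, 25.3 and 33 CPM in Sst-high and 15.2, 21, 8.27 and 16 in Adarb2-high nuclei, higher in all 4 libraries and without overlap (log2 fold change 1.26 ± 0.19 SE, edgeR adjusted p = 1.28e-05). Another, 773 kb from the start (chr14:28947985-28950169), measured 3.43, 6.99, 33.7 and 28.1 CPM in Pvalb-high and 19.8, 18, 51.2 and 50.4 in Adarb2-high nuclei. It was lower in Pvalb-high nuclei in all 4 libraries, with overlapping ranges (log2 fold change -1.24 ± 0.22 SE, edgeR adjusted p = 0.000357). Between Pvalb-high and Sst-high nuclei the smallest p among Cacna2d3 regions belonged to chr14:28969167-28969769, which holds an internal transcript start (log2 fold change -1.49 ± 0.33 SE, edgeR adjusted p = 0.00172), and chr14:29575375-29576009, in an intron (log2 fold change -1.46 ± 0.33 SE, edgeR adjusted p = 0.00204), both lower in Pvalb-high nuclei. In Cacna1b, whose gene sum also did not pass, a region over a coding exon (chr2:24630199-24632022) measured 7.19, 7.94, 24.1 and 18.8 CPM in Sst-high and 2.96, 2.63, 8.71 and 8.83 in Adarb2-high nuclei, higher in Sst-high nuclei in all 4 libraries (log2 fold change 1.33 ± 0.25 SE, edgeR adjusted p = 0.000183). Without cortex 1, the counts of called member regions fell to 27, 25 and 18 in the 3 contrasts, where 8.68%, 13.1% and 6.96% of all regions tested were called.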

How the data were processed

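Nuclei of 2 cortical and 2 hippocampal libraries were analysed. The submitters' processing notes name Cell Ranger ATAC 1.2.0 and the GRCm38 (mm10) build. The authors deposited, for each library, peaks called in that library alone and a matrix of raw counts of Tn5 cut sites per peak and nucleus barcode, and all deposited barcodes were kept. The count of a fragment's ends makes cut sites of 1 fragment dependent. Counts were summed over peaks overlapping (at least 1 bp) each protein-coding gene of GENCODE M21 and the 2000 bp upstream, so a peak in overlapping windows counted for each gene.

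Gates took nuclei with at least 2 cut sites at Pvalb, Sst or Adarb2 and a Pearson residual in the library's top 10%, and the gate genes left the tests. Sums per library, or per library and gate (12 sums, library as block), were scaled to library totals and tested with edgeR 4.0.16 robust quasi-likelihood fits in R 4.3.3, with Benjamini-Hochberg adjustment over all genes and a threshold of 0.05; SE is the absolute log2 fold change divided by the square root of F. Nuclei called leaning to other cells, 47.7 to 51.8% per library, had a higher residual for glial, excitatory and endothelial markers than for pan-GABAergic genes. Residuals were taken against the library's own rate, so the split is relative and does not identify other cells. Alternatives used TMM, DESeq2 1.42.0, other gates, peaks and libraries. Genes with low counts were removed by filterByExpr. Scripts were tested on simulated counts. Named in full were the members past the threshold, up to 6 per direction and gate contrast (Cacna1c, and Cacna1e against Adarb2-high, were added after their values were seen), the 3 smallest p per direction for tissue, the extremes of each subfamily, and up to 4 regions per direction. The members, lists and rules were chosen with earlier results of these data known. The number of cut sites sets the precision: sums rest on 32005984 to 117290059 cut sites per library. All 40 members entered every fit and count, and 2 of them are not reported singly here. Sequences were read from the RefSeq GRCm38 assembly.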

Additional observations from a re-analysis of the deposited data

How the results depend on the processing

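Members past the threshold numbered 14, 7 and 9 in the Pvalb-high over Adarb2-high, Sst-high over Adarb2-high and Pvalb-high over Sst-high contrasts. They numbered 7, 2 and 5 with a gate at 4 cut sites, 0, 0 and 0 with nuclei thinned to 2000 cut sites (where 15 members and 2128 genes were left to test and no gene passed), 10, 2 and 5 within 2 kb of the gene start, 11, 3 and 7 in the cortical and 9, 6 and 3 in the hippocampal libraries. Members without cut sites near their start, such as Cacna1a and Cacna1c, could not be tested there. Leaving out 1 library gave 9 to 12, 6 to 8 and 6 to 9 members, and 27 to 45, 25 to 41 and 18 to 44 member regions against 57, 47 and 48, the lowest each time without cortex 1. Matching the gates for depth, chosen after seeing the data, gave 13, 6 and 8. For tissue the count was 0, but 1 with DESeq2 (Cacng4, 0.90) and 0 to 3 without 1 library. For the interaction of Pvalb-high over Adarb2-high it was 0, and 0 to 2 without 1 library. Thinning leaves fewer cut sites, and the cause of the other changes was not tested.

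In all, 10 named differences changed sign. Within 2 kb of the gene start these were Cacna1e (0.66 for Pvalb-high over Adarb2-high and 0.23 over Sst-high), Cacng7 (-0.037), Cacna1h (-0.19) and, for tissue, Cacna1b (-0.38), Cacna2d3 (-0.40) and Cacna1g (0.015). The Cacna1e values rest on few cut sites near its start, with none in cortex 2. With thinned nuclei they were Cacna2d2 (-0.22) and Cacna1e (-0.59) for Sst-high over Adarb2-high and Cacna1g (0.27) for Pvalb-high over Sst-high nuclei.

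Over all genes, 1156, 1297 and 1193 calls in the gate contrasts became 643, 293 and 479 within 2 kb of the start, 286, 219 and 336 at 4 cut sites, 793, 771 and 633 without nuclei leaning to other cells, 754, 811 and 884 with matched depth, 567, 686 and 867 in cortex, 481, 684 and 295 in hippocampus, and 496 to 994, 733 to 1027 and 439 to 981 without 1 library. For tissue, 20 calls became 1 with TMM, 105 with DESeq2, 6 within 2 kb of the start, 3 with peaks of 1 gene only, 7 and 3 in Pvalb-high and Sst-high nuclei, 6 without nuclei leaning to other cells, and 6 to 725 without 1 library. Of these calls, 60% were higher in hippocampus, 74.3% with DESeq2 and 100% with TMM. The interactions gave 4 and 20 calls, 8 in the second with the top 5% gate, and 0 to 98 and 0 to 94 without 1 library.

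Libraries of the 2 tissues share replicate numbers, but the deviations of same-numbered libraries from their tissue means correlated at r = 0.0087 over 14745 genes, so the numbers were not taken as pairs. With the replicate block, the tissue fit called 0 members and 0 genes.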
